A study of Rattus norvegicus with 6 samples.

Results

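The left ventricle of rats fed a Western diet with added docosahexaenoic acid (DHA) was compared with that of rats fed a control diet, gene by gene. The comparison rests on 4 of the 6 expression arrays of the study, the 2 Western plus DHA arrays and the 2 Control arrays, and covers 31042 of 31099 probe sets, all except the controls of the array maker. A probe set is a group of short probes for 1 transcript, and 14217 genes had at least 1 probe set with a single gene symbol. The values are log2 expression levels, so a difference of 1 is a doubling, and a probe set's level is not set against that of another. Male Wistar rats entered the study at 6 weeks of age, received the Control, Western or Western + DHA diet for 12 weeks, and were 18 weeks old and fasted overnight when left ventricular tissue was taken. Each diet group held 10 rats, and each array carried RNA pooled from 5 of them. The 2 arrays of a diet are called array 1 and array 2, after their labels. What the diets contained and how much DHA was given are not stated in the sources used here. Western plus DHA differs from Control both in the Western diet and in the DHA, which cannot be told apart from these 4 arrays. The 2 arrays of the Western diet without DHA are therefore set beside them. The design text says that the diets were meant to produce left ventricular hypertrophy with few accompanying disorders.

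As background, DHA is a long-chain omega-3 fatty acid of fish oil that is built into membrane phospholipids and can bind PPAR nuclear receptors, which switch on genes of fatty acid use. The heart draws most of its energy from fatty acids, and acyl-CoA esters are the form in which cells handle them. The rodent ventricle runs mainly on the fast alpha myosin heavy chain (Myh6), while the slow beta chain (Myh7), natriuretic peptides and skeletal alpha actin belong to the fetal programme that returns when the heart hypertrophies.

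The label of ventricular muscle was checked against 11 markers, of which 0 lay below the median level of all probe sets, 5.34. Their mean level was 12.98 and 12.93 in Control and 12.84 and 12.82 in Western plus DHA. Array medians lay between 5.33 and 5.36, and the 2 arrays of each diet correlated with r = 0.993 across probe sets, which are not independent replicates. The Control 1 array stood apart from the others in 2 ways, the first in only some of the transcripts checked. Its log2 difference between 3' and 5' ends was 1.74 for the spiked poly-A transcripts, against 1.43 to 1.46 on the other 5 arrays, and 0.678 for Gapdh, against 0.301 to 0.469. For beta-actin it was 1.82 there and 1.87 on Western plus DHA 1, against 1.48 to 1.54 elsewhere. For hexokinase Control 1, at 2.277, lay with both Western arrays and Western plus DHA 1, at 2.255 to 2.269. Control 2, at 1.89, and Western plus DHA 2, at 2.035, were lower. For the hybridisation controls Control 1, at 0.502, lay within the other arrays, at 0.476 to 0.542. Control 1 also read above Control 2 for 88.0% of the 691 probe sets whose 2 Western plus DHA arrays both lay below both Control arrays by a mean of at least 0.5, against 46.9% of all probe sets. Among the 227 probe sets that were higher in the same way, Control 1 read above Control 2 for 28.6%. Values without Control 1 are given beside many of the results below, and the part of RNA integrity in any result was not tested.

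Most transcripts differed by less than 0.5 on the log2 scale, with 242 probe sets at least that far above Control and 871 at least that far below it. The median absolute difference between diet means was 0.134. That between the 2 single arrays of either diet was 0.166, which is no measure of the same kind, since a mean of 2 arrays varies less than 1 array. A limma fit over all 6 arrays, with Benjamini-Hochberg adjustment over all probe sets, set 1 of 31042 probe sets (0.00322%) past the threshold, an adjusted p below 0.05, with 0 higher and 1 lower. Unadjusted p-values under 0.05 were found for 2752 probe sets, 1296 higher and 1456 lower, and for 1314 without Control 1 and 4955 without Control 2. The tissue was bulk, so fewer cells of a type and less RNA per cell cannot be told apart. The replicates are pools, and the p-values measure the spread between pools of rats rather than between rats. Both Western plus DHA arrays lay above both Control arrays for 6836 probe sets (22.0%) and below them for 4698 (15.1%). With a mean difference of at least 0.5 besides, the counts were 227 (0.731%) and 691 (2.23%). Beyond a difference of 1 there were 8 probe sets higher and 55 lower, and beyond 1.5 there were 4 in each direction. With 2 arrays against 2, an exact permutation test of a single gene cannot give a two-sided p below 0.333, so the array order is given as a description.

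Faint and bright genes differed in this respect. With the brightest probe set standing for each gene, 3453 of the 4756 genes below the median level lay above 0, with a median difference of 0.09, and 31.6% of them did not overlap and were higher while 6.37% were lower. Among the 9461 genes at or above the median level, 17.6% were higher without overlap and 18.3% lower, with a median of -0.01. This median turned to 0.04 when the arrays were quantile normalised again and to 0.01 after cyclic loess, and that of the faint genes became 0.03 and 0.02. Over all genes the shares were 22.3% higher and 14.3% lower. These shares are the background for the gene groups below, and a group of mostly faint genes is to be read against the shares of the faint genes.

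**Figure D1:**
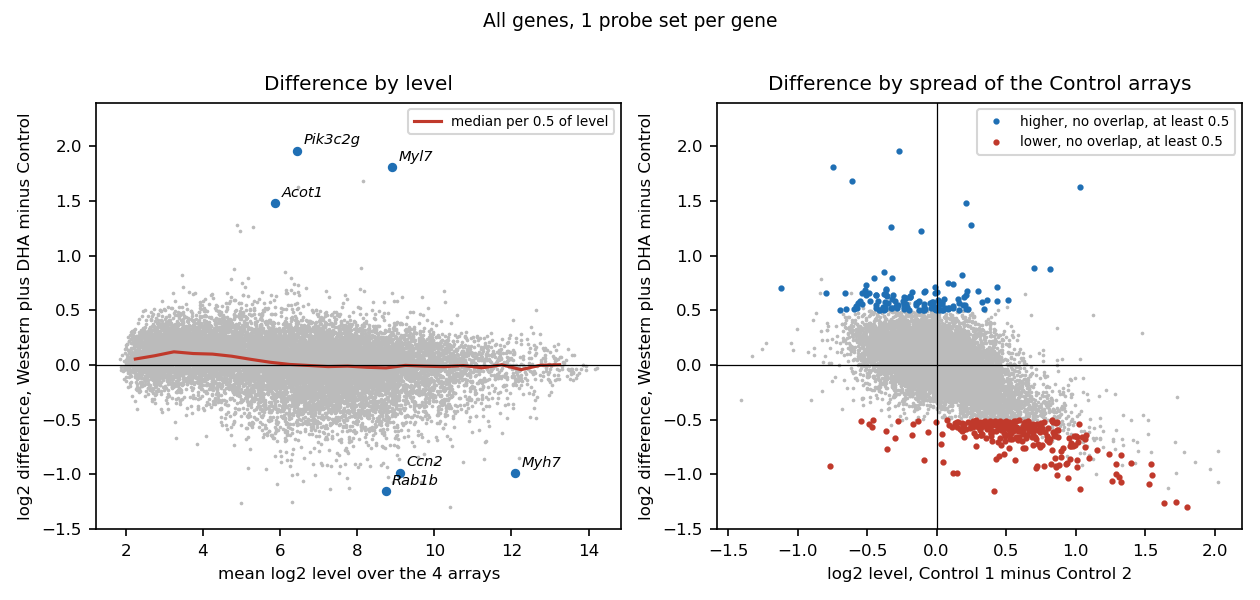
The log2 difference between Western plus DHA and Control for 14217 genes, plotted against the mean log2 level over the 4 arrays (left) and against the log2 difference between Control 1 and Control 2 (right). Each point is 1 gene, the red line is the median per 0.5 of level, and blue and red points at right mark genes whose arrays do not overlap with a mean difference of at least 0.5. The faint genes lie slightly above 0, and most red points lie to the right of 0, where Control 1 read above Control 2.

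The called probe set belongs to Myh7, the slow beta myosin heavy chain. It read 10.10 and 9.97 in Control and 8.20 and 7.95 in Western plus DHA, with means of 10.04 ± 0.09 (SD, n = 2) and 8.08 ± 0.18 (SD, n = 2). The 2 Western plus DHA arrays lay below all 4 other arrays, and the Western arrays, at 9.67 and 9.60, lay close under the Control arrays. The level fell by 1.96 ± 0.14 (standard error), a 3.90-fold lower level, with an adjusted p of 0.0119 in the limma fit. Against Western the difference was -1.56, with an adjusted p of 0.074, which did not pass. A second, brighter probe set of Myh7 read 12.66 and 12.52 in Control and 11.76 and 11.45 in Western plus DHA, a difference of -0.99 ± 0.14 that did not pass (adjusted p = 0.499). Its Western arrays read 12.55 and 12.47, level with Control. Without Control 1 the differences of the 2 probe sets were -1.90 and -0.92. The call was kept without Western plus DHA 1 (adjusted p = 0.0484) and lost when any other array was left out, with adjusted p from 0.0532 to 0.355, while the difference stayed between -2.09 and -1.84.

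Myh6, the alpha chain, read 13.52 and 13.65 in Control and 13.64 and 13.70 in Western plus DHA, and the groups overlapped. A second probe set listed for Myh6 behaved otherwise, at 12.45 and 11.90 in Control and 11.46 and 11.28 in Western plus DHA. There the Western plus DHA arrays lay below all others, Western read 11.77 and 11.80, and the difference was -0.81, or -0.53 without Control 1. The 2 heavy chain genes are near-identical copies, and which of them this probe set reads was not tested. Acta1, skeletal alpha actin, read 11.89 and 11.45 in Control and 11.41 and 10.52 in Western plus DHA. Its Western plus DHA 1 array lay just under Control 2, and the difference of -0.71 ± 0.28 was -0.26 when array 2 of Western plus DHA was left out and -1.15 when array 1 was. The natriuretic peptide genes showed smaller differences. Nppb read 10.79 and 10.75 in Control and 10.14 and 10.64 in Western plus DHA, without overlap and with a difference of -0.38 that was -0.13 when array 1 of Western plus DHA was left out and -0.63 when array 2 was. The arrays of Nppa overlapped at 10.43 and 10.26 in Control and 9.87 and 10.37 in Western plus DHA.

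Light chains of the atrial kind lay on the other side. Myl7, the atrial regulatory light chain, read 7.64 and 8.38 in Control and 10.09 and 9.53 in Western plus DHA, a difference of 1.81 ± 1.08. Myl4, the atrial essential light chain, read 7.005 and 7.61 in Control and 9.25 and 8.73 in Western plus DHA, a difference of 1.68 ± 0.73. Both Western plus DHA arrays were above both Control arrays for either gene, yet neither passed (adjusted p = 0.62 and 0.564). The 2 Western arrays were far apart, at 5.39 and 9.65 for Myl7 and 6.13 and 8.97 for Myl4, with Western 1 the lowest and Western 2 near the Western plus DHA arrays. Mybphl, a myosin-binding protein found in atria and the conduction system, read 4.31 and 4.42 in Control and 5.62 and 5.56 in Western plus DHA, and Western read 4.12 and 5.17. Sln, sarcolipin, an atrial inhibitor of the calcium pump, read 7.99 and 7.69 in Control and 8.73 and 8.31 in Western plus DHA, with Western at 7.23 and 8.16. The same Western array was low for all 4 genes.

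Of the 6 measured atrial markers, 4 did not overlap and were higher and 0 were lower, with a median difference of 0.44 that was 0.60 without Control 1 and 0.28 without Control 2. Over all genes 22.3% were higher without overlap, and the median was 0.03. The mean level of the list was 7.68 and 7.73 in Control, 6.90 and 8.53 in Western and 8.50 and 8.25 in Western plus DHA. Nppa, which atria express at high level, overlapped. The atrial channel subunit Kcnj3, 1 of the 4, differed by 0.20, or 0.38 without Control 1 and 0.02 without Control 2. The other probe sets of Kcnj3 overlapped, with differences of -0.23 and 0.12. No marker is at 0 on this scale. The 11 ventricular markers had a median of -0.07, with 5 lower and 0 higher without overlap. The part of atrial tissue in the samples, in these or in any other result, was not tested.

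**Figure D2:**
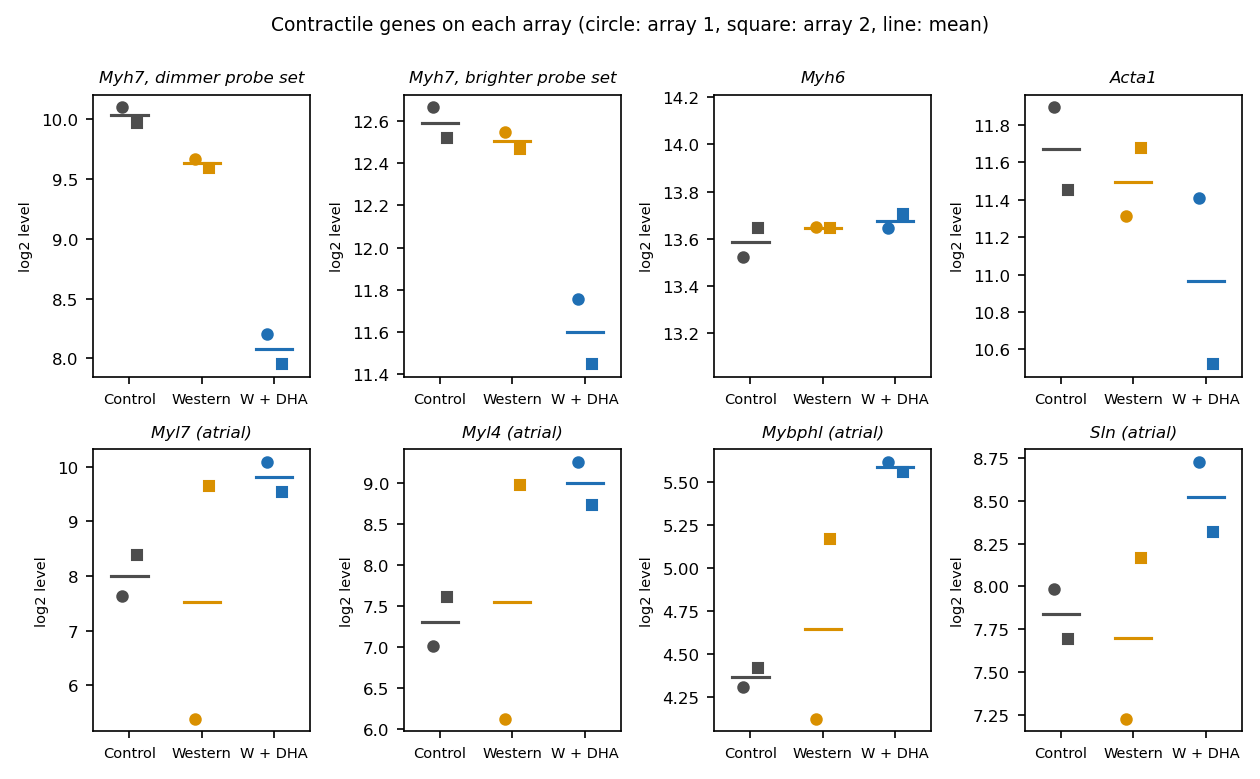
Log2 levels of contractile genes on each of the 6 arrays, with the mean of each diet as a line, on an axis of its own for each gene. Both Myh7 probe sets are lowest on the Western plus DHA arrays, and the 4 atrial genes are higher there than in Control, while their 2 Western arrays lie far apart, at 5.39 and 9.65 for Myl7.

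Around the myosin genes, the sarcomere showed small differences on bright probe sets. Of 10 thick filament genes, 2 were higher without overlap (Myl7 and Myl4) and 5 lower, with a median of -0.13. The myomesin gene Myom2, which crosslinks thick filaments, read 12.86 and 12.74 in Control and 12.52 and 12.49 in Western plus DHA, and Western read 12.65 and 12.67. None of 10 thin filament genes was higher without overlap and 5 were lower, among them Tmod1, which caps actin filaments, at -0.21. A second probe set of Tmod1 read 10.18 and 10.05 in Control and 9.65 and 9.67 in Western plus DHA. Of 15 genes of the Z-disc and of stretch sensing, 1 of them faint, 6 were lower without overlap and 0 higher. Among genes at or above the median level 18.3% were lower and 17.6% higher, and among all genes 14.3% and 22.3%. Ankrd23, an ankyrin repeat protein that binds titin, read 7.85 and 7.94 in Control and 6.83 and 7.23 in Western plus DHA, with Western at 7.59 and 7.67. The 2 diets were well apart, by a gap of 0.63 between the nearest arrays. Flnc, the muscle filamin, differed by -0.25 on its brighter probe set and by -0.91 on the other, which read 7.17 and 7.08 in Control and 6.39 and 6.05 in Western plus DHA.

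Genes of the fetal and hypertrophic programme lay mostly below Control. Of 15 measured genes, 7 were lower without overlap and 1 was higher (Myl4), and the median was -0.38, or -0.27 without Control 1 and -0.59 without Control 2. The same genes had a median of -0.02 in Western against Control, a comparison that shares the Control arrays. Ccn2, the connective tissue growth factor, had the widest gap below Control after Myh7. It read 9.67 and 9.55 in Control and 8.72 and 8.54 in Western plus DHA, and Western lay between at 9.07 and 9.43. Its difference of -0.98 ± 0.16 was -0.92 without Control 1 and did not pass (adjusted p = 0.515). Rcan1, an inhibitor of calcineurin that calcineurin itself induces, read 11.22 and 11.17 in Control and 10.13 and 10.49 in Western plus DHA. Western was intermediate at 10.75 and 10.80, and the difference was -0.89 ± 0.15. Cited4, a transcriptional coactivator of the heart's response to exercise in mice, read 6.95 and 6.46 in Control and 5.95 and 5.84 in Western plus DHA, with a wide Western pair of 6.16 and 6.83. Xirp1, a protein of intercalated discs, read 9.98 and 8.88 in Control and 8.90 and 8.33 in Western plus DHA. Its groups overlapped, and its difference of -0.82 was -0.27 without Control 1.

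The windows before the annotated starts of Ccn2 and Acta1 are shown for the short elements they hold, from the RefSeq promoter table (build GRCr8), 250 bases each, 5′ to 3′ toward the gene. Capitals mark GGAATG on either strand (CATTCC on the printed strand when reversed), the core of the M-CAT element that TEAD factors bind, and the CArG box, which serum response factor binds. Ccn2 lies at chr1:22624615-22624864, reverse strand, and Acta1 at chr19:68784195-68784444, reverse strand.
Ccn2: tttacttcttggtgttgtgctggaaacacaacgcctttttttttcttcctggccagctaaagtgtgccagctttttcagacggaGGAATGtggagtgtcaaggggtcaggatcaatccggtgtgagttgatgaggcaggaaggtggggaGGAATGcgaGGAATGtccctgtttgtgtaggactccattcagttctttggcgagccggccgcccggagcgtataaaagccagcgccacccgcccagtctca
Acta1: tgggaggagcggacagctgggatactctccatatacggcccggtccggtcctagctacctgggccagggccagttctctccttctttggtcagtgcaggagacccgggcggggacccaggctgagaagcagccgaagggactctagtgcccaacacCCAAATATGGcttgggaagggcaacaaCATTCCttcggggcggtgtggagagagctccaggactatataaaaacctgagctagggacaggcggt
The Ccn2 window holds GGAATG 3 times and the Acta1 window 1 time, besides 1 CArG box in Acta1. The marked motifs do not overlap each other. Of 33469 windows of the same length, 12.1% hold GGAATG and 501 of them hold a CArG box. A match describes the letters of the window and not a bound factor, and the genes to show were chosen after their values and motifs were seen.

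Calcium handling and excitation showed few differences of size. Of 14 calcium cycling genes, 1 was higher without overlap (Sln) and 5 lower, against 22.3% and 14.3% of all genes. Their median was -0.07. Casq2, the calcium store protein of the sarcoplasmic reticulum, read 12.18 and 12.17 in Control and 11.95 and 12.09 in Western plus DHA. Junctophilin Jph2, which holds that reticulum to the surface membrane, differed by -0.39 and by -0.15 without Control 1. Of 16 ion channel genes, 8 were lower without overlap and 3 higher. The background potassium channel Kcnk3 read 8.98 and 8.17 in Control and 7.96 and 7.78 in Western plus DHA, while 2 further probe sets differed by 0.11 and -1.09, the latter by -0.63 without Control 1. Of 11 adrenergic and angiotensin genes, 7 of them faint, 3 were lower and 1 higher without overlap. The alpha-1B adrenergic receptor Adra1b read 10.22 and 9.86 in Control and 9.60 and 9.42 in Western plus DHA. Ace, the angiotensin-converting enzyme, read 6.001 and 5.28 in Control and 4.84 and 4.55 in Western plus DHA, with Western at 5.13 and 5.75, and its difference of -0.94 was -0.59 without Control 1.

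Acyl-CoA thioesterases, which release free fatty acids from coenzyme A, lay above Control. Of 10 measured genes, 4 were higher without overlap and 1 lower, and 8 lay above 0, with a median of 0.14. Among all 14217 genes, 22.3% were higher without overlap, 14.3% were lower, and 8067 lay above 0. Acot1, the cytosolic member and a PPAR alpha target, read 5.24 and 5.03 in Control and 6.52 and 6.72 in Western plus DHA. The Western arrays stood between at 5.83 and 5.82, and no array of 1 diet reached the range of another. Its difference of 1.48 ± 0.14, a 2.79-fold higher level, had the second lowest adjusted p of all probe sets, 0.0562, and did not pass. Against Western it differed by 0.79 (adjusted p = 0.983). Acot2, the mitochondrial member, read 10.88 and 10.98 in Control and 11.07 and 11.23 in Western plus DHA, with Western at 11.15 and 11.21. Its other probe sets differed by 0.14 and 0.60, with overlap. Acot4, a peroxisomal thioesterase of succinyl-CoA and other esters in mice, read 4.77 and 3.95 in Control and 5.16 and 5.32 in Western plus DHA. Control 1 was the higher Control array there, and the difference was 0.88, or 1.29 without Control 1. These genes are closely similar copies in 1 cluster, and how far probes are shared between them was not tested.

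The window before the annotated start of Acot1, the gene nearest to a call among those above Control, is shown from the same table (chr6:109367024-109367273, forward strand). Capitals mark CCAAT on either strand (ATTGG when reversed), the box bound by the factor NF-Y.
Acot1: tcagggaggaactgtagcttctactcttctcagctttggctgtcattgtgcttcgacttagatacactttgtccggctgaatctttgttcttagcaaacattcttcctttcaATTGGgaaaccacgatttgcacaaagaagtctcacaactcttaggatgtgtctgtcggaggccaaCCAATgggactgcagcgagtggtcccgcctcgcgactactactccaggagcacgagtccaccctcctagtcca
The window holds CCAAT 2 times, as 34.0% of all windows do at least once. The half-site AGGTCA of nuclear receptors, which 14.1% of windows hold on either strand, is not in these letters, and nothing follows from that for PPAR alpha.

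The wider group of PPAR alpha targets differed little. Of 22 measured targets, 10 were higher without overlap and 1 lower, with a median of 0.08 and 5 higher at an unadjusted p under 0.05. The shares over all genes were 22.3% and 14.3%, and 634 of 14217 genes were higher at such a p. Angptl4, a secreted inhibitor of lipoprotein lipase, read 8.43 and 8.90 in Control and 9.29 and 9.22 in Western plus DHA. The Control arrays were far apart, and the difference of 0.59 was 0.35 without Control 1 and 0.83 without Control 2. Decr1, which removes double bonds from polyunsaturated fatty acids on their way through beta-oxidation, read 11.88 and 11.77 in Control and 12.16 and 12.30 in Western plus DHA, with Western at 12.20 and 11.99. Cyp4a1, a fatty acid hydroxylase, was faint, at 2.59 and 2.60 in Control and 2.86 and 3.25 in Western plus DHA. Pdk4, which turns down pyruvate use, was level on its brighter probe set, at 12.32 and 12.29 in Control and 12.22 and 12.40 in Western plus DHA. Its other probe set was lower without overlap, at 9.58 and 9.53 in Control and 9.30 and 9.49 in Western plus DHA, a difference of -0.16. Cpt1b, the muscle entry step of fatty acids into mitochondria, overlapped at 11.84 and 11.49 in Control and 11.62 and 11.24 in Western plus DHA. The brighter probe set of the uncoupling protein gene Ucp3 overlapped too, at 8.64 and 8.46 in Control and 8.55 and 8.60 in Western plus DHA. The other Ucp3 probe set did not, at 7.79 and 7.73 in Control and 7.53 and 7.49 in Western plus DHA, a difference of -0.25. The fatty acid transporter gene Cd36 also overlapped, with a low Control 1 array, at 12.000 and 12.54 in Control and 12.59 and 12.43 in Western plus DHA.

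Within mitochondrial fatty acid oxidation, 6 of 20 genes were higher without overlap and 2 lower, against 22.3% and 14.3% of all genes. Their median was 0.01. Acaa2, the thiolase of the last step, read 12.59 and 12.63 in Control and 12.88 and 12.90 in Western plus DHA, and a second probe set differed by 0.28. Acads, the short-chain dehydrogenase, differed by -0.57, or -0.33 without Control 1. Of 15 peroxisomal genes, 1 was higher and 1 lower without overlap. For fatty acid uptake and lipid droplets the counts were 3 higher and 4 lower of 22. G0s2, an inhibitor of the lipase Pnpla2, read 10.000 and 10.10 in Control and 9.43 and 9.68 in Western plus DHA, with Western at 9.80 and 10.04. Its difference of -0.49 was -0.54 without Control 1. Pnpla2 itself differed by -0.45, or -0.21 without Control 1, and the hormone-sensitive lipase gene Lipe by -0.48, or -0.23 without it. A second probe set of Lipe overlapped, at 6.74 and 6.67 in Control and 6.72 and 6.92 in Western plus DHA, a difference of 0.12.

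The desaturases that make long polyunsaturated fatty acids from plant precursors lay above Control. Fads1, the delta-5 desaturase, read 6.77 and 6.91 in Control and 7.34 and 7.17 in Western plus DHA, with Western at 6.85 and 7.06. Fads2, the delta-6 desaturase, read 4.17 and 4.26 in Control and 4.76 and 4.65 in Western plus DHA, with Western at 4.48 and 4.56. For both genes the 2 diets did not overlap, with differences of 0.42 ± 0.14 and 0.49 ± 0.12 (adjusted p = 0.562 and 0.562). Fads3 lay on the other side at 7.71 and 7.63 in Control and 7.19 and 7.36 in Western plus DHA. Scd, which makes oleate, was faint at 3.40 and 3.44 in Control and 3.69 and 3.77 in Western plus DHA, with Western higher at 3.78 and 4.04. Acacb, whose product malonyl-CoA restrains entry of fatty acids into mitochondria, read 6.51 and 6.06 in Control and 5.69 and 5.20 in Western plus DHA, and its difference of -0.84 was -0.61 without Control 1. Srebf1, a master regulator of this pathway, was level on its brighter probe set, at 7.18 and 7.17 in Control and 7.27 and 7.07 in Western plus DHA. Its other probe set was lower without overlap, at 6.01 and 5.81 in Control and 5.67 and 5.59 in Western plus DHA. The difference there was -0.28, or -0.18 without Control 1. Of 17 genes of synthesis and desaturation, 6 were higher without overlap and 2 lower, against 22.3% and 14.3% of all genes. Their median was 0.04, and 6 of the 17 were faint.

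**Figure D3:**
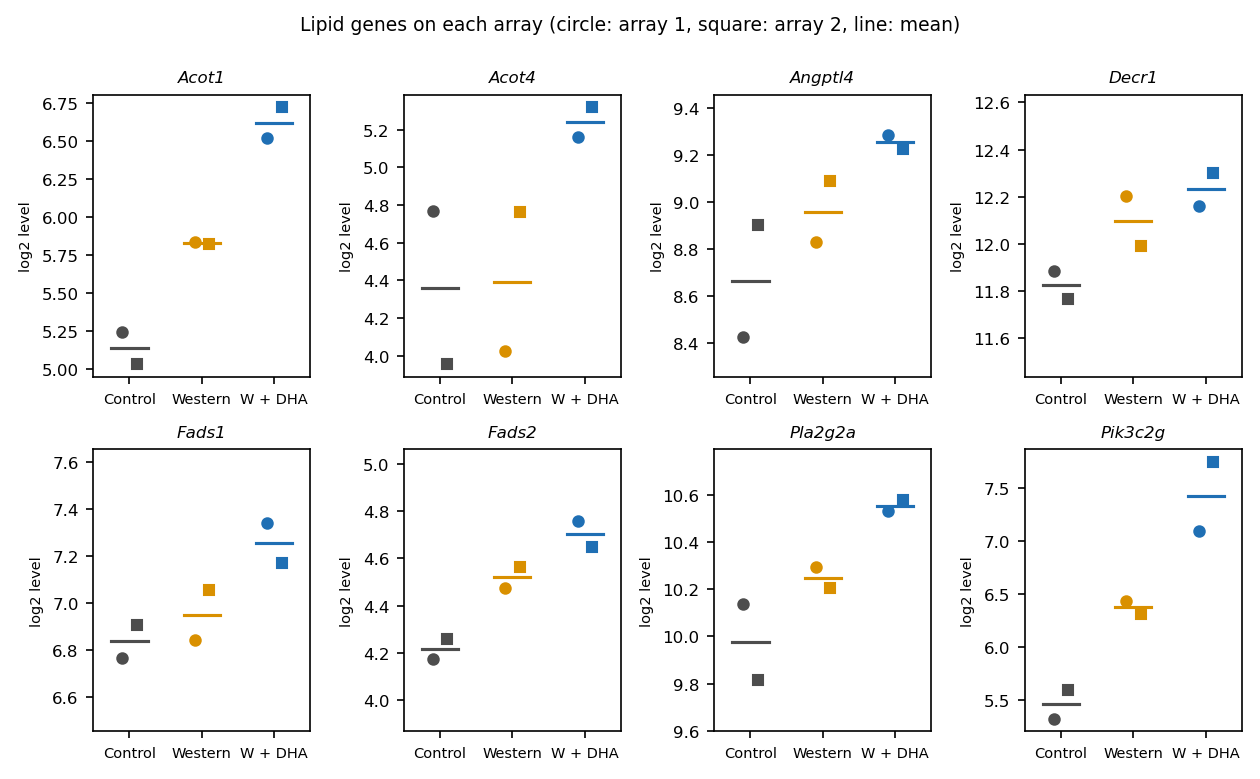
Log2 levels of 7 lipid genes and of the lipid kinase gene Pik3c2g on each of the 6 arrays, with the mean of each diet as a line, on an axis of its own for each gene. The Western plus DHA arrays lie above the Control arrays for every gene shown, and the Western arrays of Acot1, at 5.83 and 5.82, lie between.

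Genes that release and convert polyunsaturated fatty acids of membranes were higher more often than lower. Of 22 eicosanoid and phospholipase genes, 10 were higher without overlap and 3 lower, against 22.3% and 14.3% of all genes. The median was 0.25, and 0.12 without Control 1. Pla2g2a, a secreted phospholipase, read 10.14 and 9.81 in Control and 10.53 and 10.58 in Western plus DHA, with Western between at 10.30 and 10.20. Ptgds, prostaglandin D synthase, read 5.74 and 5.37 in Control and 6.06 and 6.23 in Western plus DHA, and Western, at 5.91 and 6.02, overlapped neither group. Hpgd, which inactivates prostaglandins, was faint, at 3.86 and 3.68 in Control and 4.11 and 4.32 in Western plus DHA. Its Western arrays, at 3.77 and 3.77, lay with Control. Ephx1, an epoxide hydrolase, read 7.22 and 7.40 in Control and 8.003 and 7.52 in Western plus DHA, with the 2 Western plus DHA arrays far apart.

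Sterol genes lay on both sides of Control. Of 15 synthesis genes, 4 were higher and 4 lower without overlap, against 22.3% and 14.3% of all genes. Msmo1, a sterol demethylase, read 6.94 and 7.08 in Control and 7.38 and 7.39 in Western plus DHA, with Western at 7.08 and 6.95, while lanosterol synthase Lss read 6.44 and 6.60 in Control and 6.19 and 5.77 in Western plus DHA. Insig1, which holds back the sterol response, read 8.83 and 8.65 in Control and 8.29 and 8.44 in Western plus DHA, and Western was as low at 8.36 and 8.37. Of 13 genes of sterol efflux and LXR, 2 were higher and 2 lower without overlap. The cholesterol exporter Abca1 read 6.94 and 6.80 in Control and 7.07 and 7.22 in Western plus DHA, a difference of 0.28. The Western arrays of this probe set were lowest, at 6.35 and 5.85, so that Western plus DHA lay 1.05 above Western (adjusted p = 0.983). Its 3 other probe sets differed between Western plus DHA and Control by at most 0.09.

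The widest gap of any named gene above Control belonged to Pik3c2g, a class II PI3-kinase that makes 3-phosphorylated inositol lipids and is known from liver, where it acts in insulin signalling in mice. It read 5.33 and 5.60 in Control and 7.10 and 7.75 in Western plus DHA, with Western between at 6.43 and 6.32. The 3 diets did not overlap, and the difference of 1.96 ± 0.21, a 3.89-fold higher level, did not pass (adjusted p = 0.118). It passed in the fit without Western plus DHA 1, at 2.29, and its adjusted p ran from 0.0484 there to 0.9995 without Control 1, at 1.83. Against Western it was 1.05 (adjusted p = 0.983). The other genes of insulin and PI3-kinase signalling did not share this pattern. Of 21 genes, 3 were higher without overlap and 6 lower, against 22.3% and 14.3% of all genes. Their median was -0.09, or -0.0068 without Control 1 and -0.20 without Control 2. Igf1, the growth factor, read 9.57 and 9.57 in Control and 10.18 and 10.01 in Western plus DHA on its brightest probe set, while its other probe sets overlapped, with differences of 0.11 and 0.16. Igf2r, the receptor that clears Igf2, read 9.54 and 9.59 in Control and 9.18 and 9.20 in Western plus DHA, and the Western arrays read 9.46 and 9.46.

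Genes of glucose use were lower more often than higher. Of 20 genes of glycolysis and glucose uptake, 0 were higher without overlap and 8 lower, with a median of -0.13, or -0.07 without Control 1. Among genes at or above the median level, 17.6% were higher without overlap and 18.3% lower. Hexokinase Hk1 read 9.37 and 8.85 in Control and 8.49 and 8.22 in Western plus DHA, with Western at 8.86 and 9.06. Its difference of -0.76 was -0.50 without Control 1, and a fainter probe set of Hk1 went the other way, by 0.30. The phosphofructokinase gene Pfkl read 7.96 and 6.66 in Control and 6.56 and 6.25 in Western plus DHA, where Control 1 stood far above the other arrays, and the difference of -0.91 was -0.26 without it. Of 19 genes of pyruvate dehydrogenase and the citric cycle, 10 were lower without overlap and 1 higher, with a median of -0.08 and the same value, -0.08, without Control 1. The kinase gene Pdk2, which inhibits pyruvate dehydrogenase, read 11.81 and 11.08 in Control and 11.05 and 10.65 in Western plus DHA and on a second probe set 9.78 and 9.18 in Control and 8.67 and 8.14 in Western plus DHA. Its differences were -0.60 and -1.08, and -0.23 and -0.78 without Control 1. Ogdh, of the citric cycle, read 12.93 and 12.52 in Control and 12.39 and 12.10 in Western plus DHA.

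Of 28 respiratory chain genes, 12 were lower and 4 higher without overlap, but the median was only -0.04. Among genes at or above the median level, 18.3% were lower without overlap and 17.6% higher. Cox5a, a subunit of cytochrome oxidase, had the smallest p of the list, at 7.24 and 7.29 in Control and 6.90 and 6.996 in Western plus DHA, and its Western arrays, at 6.93 and 7.40, spanned both groups. Of 20 genes of mitochondrial biogenesis and uncoupling, 9 were lower and 1 higher without overlap. Esrra, a nuclear receptor that drives mitochondrial genes, read 9.27 and 8.76 in Control and 8.41 and 8.53 in Western plus DHA, and its difference of -0.54 was -0.29 without Control 1. Ucp2, an uncoupling protein homologue, read 10.13 and 8.80 in Control and 8.63 and 8.16 in Western plus DHA, and its difference of -1.07 was -0.41 without Control 1. Control 1 was the highest of the 4 arrays for both genes.

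Immediate early genes, which cells transcribe within minutes of a stimulus, were mostly below Control in their means, by less without Control 1. Of 23 genes, 18 lay below 0 and 5 were lower without overlap, with a median of -0.33 that was -0.08 without Control 1 and -0.49 without Control 2. Of all 14217 genes, 6150 lay below 0 and 14.3% were lower without overlap, or 18.3% of those at or above the median level. Egr1, a zinc finger transcription factor, read 8.82 and 7.99 in Control and 7.69 and 7.31 in Western plus DHA, with Western at 7.61 and 8.04. Its difference of -0.90 ± 0.27 was -0.49 without Control 1. Ier3, a survival factor, read 8.21 and 8.04 in Control and 7.89 and 7.58 in Western plus DHA, and Ier5 read 7.92 and 7.94 in Control and 7.70 and 7.54 in Western plus DHA. In both genes the Western arrays, at 8.16 and 8.19 and 7.92 and 7.90, lay with Control.

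The window before the annotated start of Egr1 (chr18:26736828-26737077, forward strand, from the same table) is shown because CArG boxes mark many genes of this group. Capitals mark 2 CArG boxes and 1 CCAAT, which do not overlap.
Egr1: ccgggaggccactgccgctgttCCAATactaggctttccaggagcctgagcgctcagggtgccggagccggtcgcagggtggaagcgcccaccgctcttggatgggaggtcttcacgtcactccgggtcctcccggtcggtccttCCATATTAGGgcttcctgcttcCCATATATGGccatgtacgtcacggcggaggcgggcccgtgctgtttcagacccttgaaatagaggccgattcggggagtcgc
As given above, 501 of 33469 windows of this length hold a CArG box.

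Heat shock genes were lower without overlap in 11 of 18 cases and higher in 1, with a median of -0.15 that was -0.20 without Control 1. For this and the following lists, 18.3% of genes at or above the median level were lower without overlap and 17.6% higher. Of all genes, 14.3% were lower and 22.3% higher. Hspb7, a small heat shock protein of the heart, read 13.06 and 12.20 in Control and 11.73 and 11.84 in Western plus DHA, with Western at 12.15 and 12.27. Its difference of -0.85 was -0.42 without Control 1. Hspa1a, the inducible chaperone, read 8.70 and 8.98 in Control and 8.20 and 8.46 in Western plus DHA, and the difference of -0.51 was -0.65 without Control 1. Its cochaperone Dnajb1 read 8.65 and 8.46 in Control and 8.15 and 8.21 in Western plus DHA. The unfolded protein response of the endoplasmic reticulum had 3 genes higher and 3 lower without overlap of 21. Its lectin chaperone Calr read 9.96 and 9.36 in Control and 9.20 and 9.19 in Western plus DHA, and its difference of -0.47 was -0.17 without Control 1. Antioxidant genes lay on both sides, with 7 of 25 higher and 9 lower without overlap. Glutathione transferase Gsta1 read 8.76 and 8.95 in Control and 9.67 and 9.29 in Western plus DHA, while Gstm2 read 9.68 and 9.10 in Control and 8.91 and 8.51 in Western plus DHA. Of 13 cytosolic ribosome genes, 4 were higher and 0 lower without overlap, by 0.16 to 0.19. Of 24 ubiquitin and autophagy genes, 6 were lower and 1 higher, and the median changed sign when the arrays were quantile normalised again.

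Matrix genes had no common direction. Of 24 genes of collagens and their processing, 7 were lower and 2 higher without overlap, against 14.3% and 22.3% of all genes. Their median of -0.16 ran from -0.34 without Western plus DHA 1 to 0.06 without Western plus DHA 2. The fibrillar collagen gene Col1a1 overlapped, at 9.53 and 8.19 in Control and 8.27 and 7.98 in Western plus DHA, and its difference of -0.73 was -0.06 without Control 1. Col3a1 overlapped too, at 11.83 and 11.44 in Control and 11.78 and 11.28 in Western plus DHA. The basement membrane collagen gene Col4a1 read 10.45 and 9.56 in Control and 9.34 and 8.99 in Western plus DHA, a difference of -0.84, or -0.39 without Control 1. P3h1, a prolyl hydroxylase of collagen, read 6.14 and 5.82 in Control and 5.36 and 5.32 in Western plus DHA. Lox, which crosslinks collagen, lay above Control at 6.77 and 6.85 in Control and 7.31 and 7.12 in Western plus DHA. Of 29 further matrix and TGF-beta genes, 4 were higher and 5 lower. Tgfb1 read 7.60 and 6.05 in Control and 5.98 and 5.64 in Western plus DHA, and its difference of -1.01 was -0.23 without Control 1. Mmp11, a matrix protease, read 6.06 and 5.73 in Control and 5.28 and 5.25 in Western plus DHA.

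Rab1b, a small GTPase of transport from the endoplasmic reticulum to the Golgi, differed on all 4 of its probe sets. The brightest read 9.52 and 9.11 in Control and 8.39 and 7.93 in Western plus DHA, a difference of -1.15 ± 0.24. The others differed by -0.48, -0.57 and -0.75, and no Western plus DHA array reached a Control array on any of the 4. Western read 8.73 and 9.32 on the brightest. Of 22 Rab genes, 7 were lower and 5 higher without overlap, against 14.3% and 22.3% of all genes. Rab11b, of recycling endosomes, read 10.88 and 10.20 in Control and 10.19 and 9.82 in Western plus DHA, a difference of -0.54 that was -0.20 without Control 1. A second probe set of Rab11b read 9.32 and 8.62 in Control and 8.15 and 7.63 in Western plus DHA. Its difference was -1.08, or -0.73 without Control 1.

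Inflammatory mediators were mostly faint, with 11 of 20 below the median level. Of them 5 were higher and 1 lower without overlap, with a median of 0.17 that was 0.04 without Western plus DHA 1. The chemokine Ccl3 read 4.84 and 4.90 in Control and 5.59 and 5.05 in Western plus DHA and Cxcl1 read 4.68 and 4.76 in Control and 5.40 and 4.91 in Western plus DHA, with Western plus DHA 1 the highest array in both. Cxcl12, a chemokine of stromal cells, lay below Control at 10.37 and 10.63 in Control and 10.17 and 9.90 in Western plus DHA on its brightest probe set, while the other probe sets differed by 0.24 and 0.04. Interferon and antigen presentation genes were higher in 2 and lower in 1 of 22 cases, against 22.3% and 14.3% of all genes. The clock list had 2 higher and 2 lower of 17, the glucocorticoid and fasting list 1 and 5 of 20, and the cell cycle list 6 and 2 of 19. In the cell cycle list 12 of the 19 were faint, and of all faint genes 31.6% were higher and 6.37% lower without overlap. Ddit4, an inhibitor of mTOR, read 7.96 and 7.82 in Control and 7.44 and 7.41 in Western plus DHA, and Western lay as low at 7.41 and 7.50. The cyclin gene Ccnd1 read 8.41 and 8.20 in Control and 7.86 and 7.81 in Western plus DHA, with Western at 8.05 and 7.93.

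Markers of other cell types were set beside these results. Erythroid markers lay above Control, with 4 of 6 higher without overlap, against 22.3% of all genes. Their median was 0.44, with mean levels of 7.33 and 7.28 in Control and 7.62 and 7.67 in Western plus DHA. Alpha globin Hba-a3 read 9.87 and 9.96 in Control and 10.54 and 10.63 in Western plus DHA, with Western at 10.36 and 10.48, and beta globin Hbb read 12.30 and 12.49 in Control and 12.96 and 12.84 in Western plus DHA. Of 10 epicardial and mesothelial markers, 6 were higher and 0 lower without overlap, but 7 were faint, and 31.6% of all faint genes were so. Mean levels were 4.25 and 4.28 against 4.72 and 4.43. The keratin Krt19 read 3.15 and 2.97 in Control and 4.21 and 3.55 in Western plus DHA. Macrophage markers were higher without overlap in 5 and lower in 0 of 13 cases, with mean levels of 7.13 and 6.99 against 7.46 and 6.98. The scavenger receptor Cd163 read 6.17 and 5.98 in Control and 6.64 and 6.37 in Western plus DHA, and the hyaluronan receptor Lyve1 read 7.60 and 8.04 in Control and 8.43 and 8.25 in Western plus DHA. Lymphocyte and mast cell markers were higher in 9 and lower in 1 of 14 cases, with 9 of the 14 faint and mean levels of 4.81 and 4.70 against 5.04 and 4.82. Of 8 neutrophil markers, 4 were higher and 1 lower without overlap, against 31.6% and 6.37% of all faint genes, and 6 were faint. The calcium-binding protein gene S100a9, at or above the median level, read 5.51 and 5.89 in Control and 6.57 and 6.53 in Western plus DHA. Western was as high there, at 6.62 and 6.70.

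Vessel and stroma markers were less even. Endothelial markers overlapped but for 1 higher and 1 lower of 12, where 22.3% and 14.3% of all genes were so. Their mean levels were 9.13 and 8.79 against 8.96 and 8.50. Smooth muscle and pericyte markers were lower in 6 and higher in 2 of 13 cases, with mean levels of 7.59 and 7.34 against 7.33 and 7.16. Smooth muscle actin Acta2 read 7.27 and 6.20 in Control and 5.97 and 6.15 in Western plus DHA, where Control 1 stood above the rest, and its difference of -0.68 was -0.14 without it. Fibroblast markers had 4 of 14 higher and 0 lower without overlap, among them Mfap5, a microfibril protein, at 9.26 and 9.46 in Control and 10.23 and 9.74 in Western plus DHA, and mean levels of 10.14 and 9.83 against 10.24 and 9.73. Of 12 adipocyte markers, 3 were higher and 1 lower without overlap, and of 8 brown adipocyte markers 4 and 1. Of 12 skeletal muscle markers, 9 of them faint, 2 were higher and 2 lower, and of 10 nerve and glia markers, 7 of them faint, 1 and 2. Control 1 and Western plus DHA 1 had the higher mean of their diet for the endothelial, smooth muscle, fibroblast and macrophage lists. The part of these cells in the results above was not tested.

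The medians of most lists leaned on single arrays. When each of the 4 arrays was left out in turn, 16 of the 49 medians changed sign, 27 kept their sign but moved by over 1.5 times, and 6 did neither. The 6 were the thin filament, ion channel, acyl-CoA thioesterase, citric cycle, heat shock and erythroid lists.

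**Figure D4:**
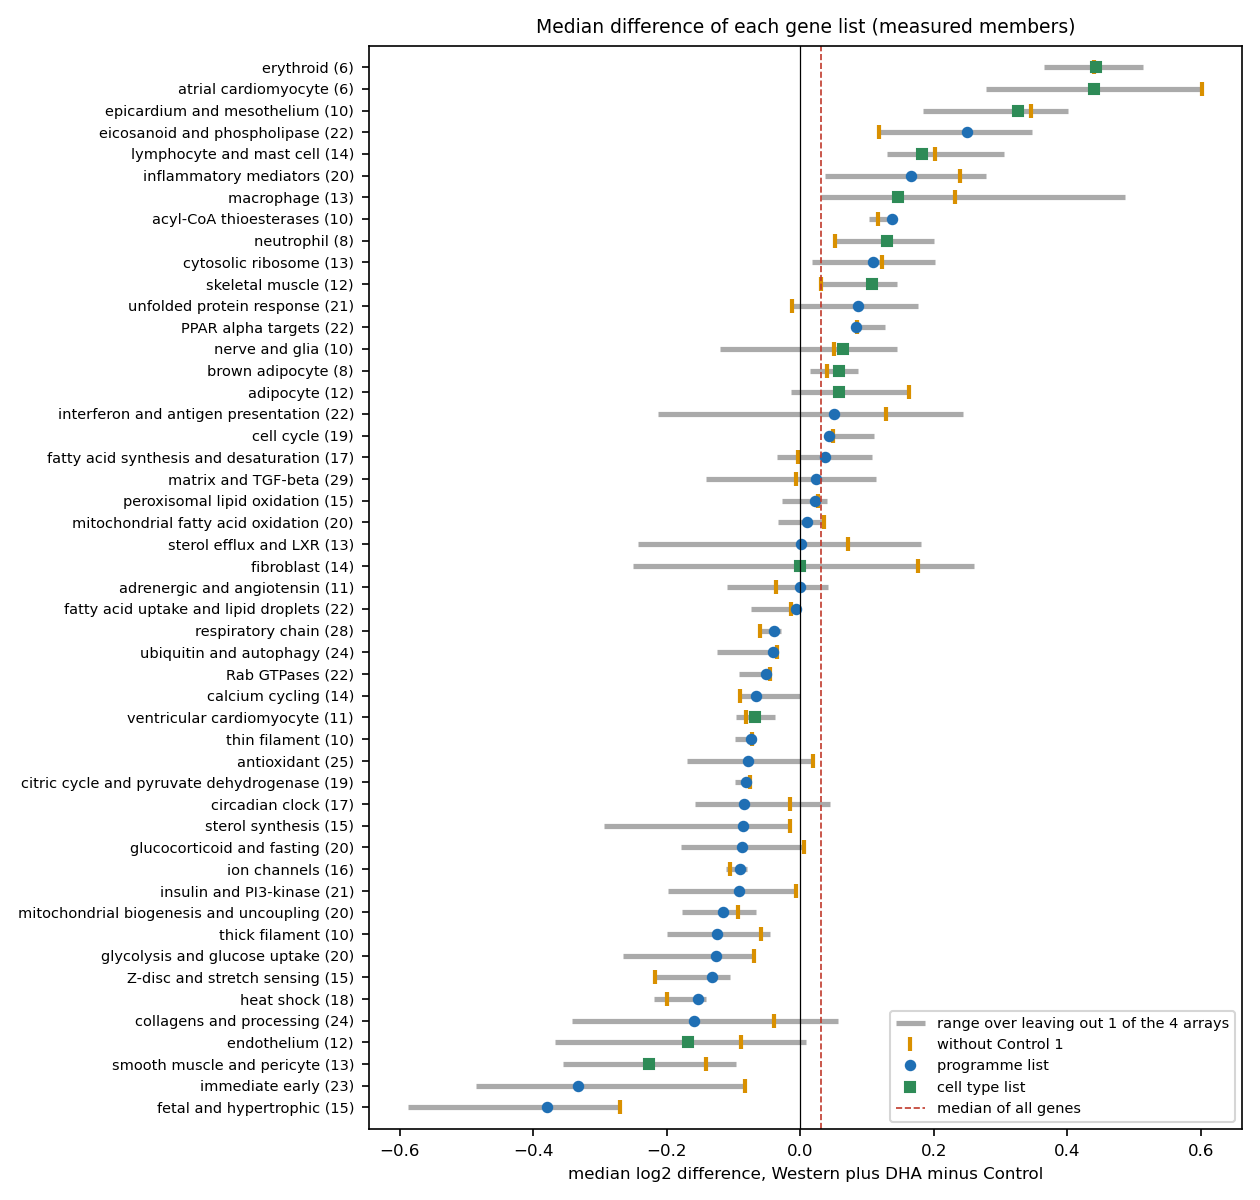
The median log2 difference between Western plus DHA and Control for each of 49 gene lists, with the number of measured members in brackets. Grey bars span the medians when 1 of the 4 arrays is left out, orange ticks mark those without Control 1, and the dashed line is the median of all genes. The fetal and hypertrophic list has the lowest median, at -0.38, and its bar stays below 0, while the bar of the immediate early list reaches -0.08.

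Among genes at or above the median level, with no overlap and a difference of at least 0.5, 80 (0.846%) were higher and 244 (2.58%) lower. With locus and clone names left out 79 and 242 remained, and the 15 with the widest gap were named in each direction. Those above Control, besides genes already given, were Arxes1, Plppr4, Flrt3, Dhh, Ctsm, Mnda and Fmo2. Plppr4, a lipid phosphatase-related protein known from neurons, read 6.17 and 5.14 in Control and 6.79 and 7.78 in Western plus DHA, and Flrt3, an adhesion protein, read 6.07 and 5.94 in Control and 6.87 and 6.62 in Western plus DHA. Their Western arrays read 6.44 and 6.91 and 6.20 and 6.29. Fmo2, a flavin monooxygenase, read 7.55 and 7.91 in Control and 8.43 and 8.42 in Western plus DHA, while its 2 other probe sets differed by 0.27 and 0.08. Those below Control, besides genes already given, were Gdf11, Pa2g4, Mapt, Synj2, Cux2 and Clcn2. Mapt, the microtubule protein tau, read 9.45 and 8.99 in Control and 8.52 and 8.46 in Western plus DHA on its brightest probe set. Its other probe sets differed by -0.16, with overlap, and by -0.20, or -0.10 without Control 1. Gdf11, a TGF-beta family ligand, read 6.41 and 6.59 in Control and 5.91 and 5.82 in Western plus DHA on its brighter probe set and differed by 0.22 on the other. Without Control 1 all 15 genes above Control still differed by at least 0.5, and 9 of the 15 below did. The genes were chosen by these same arrays, and their gaps were at least 0.44 above Control and 0.436 below. Without any 1 array, a difference of at least the gap follows from the choice, so these counts are no check. For the genes above Control the differences ran from 0.52 to 1.96 and for those below from -1.15 to -0.57, and their adjusted p-values from 0.0562 to 0.620 and from 0.499 to 0.562.

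**Figure D5:**
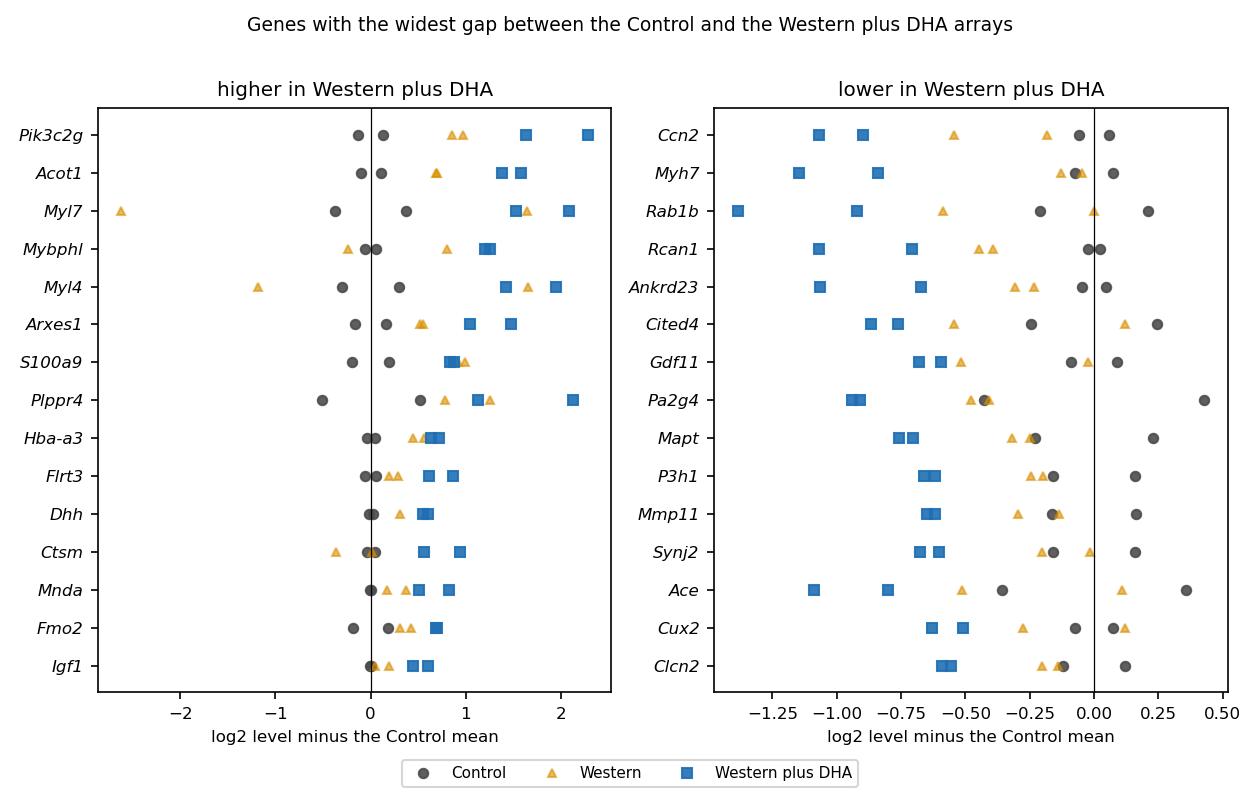
Log2 levels of the 15 genes above and the 15 genes below Control with the widest gap between the nearest Control and Western plus DHA arrays, each minus the Control mean of its gene. Every symbol is 1 array. Grey circles and blue squares do not overlap for any gene, as the choice of genes requires, and the Western arrays of Myl7 are the farthest apart.

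The windows before the annotated starts also differed in base composition between these sets. Of the 257 genes (1.81% of all) that were lower by at least 0.5 without overlap, 212 (82.5%) had a window in the promoter table, and its median GC content was 63.4%, with quartiles of 57.2% and 69.3%. Of the 130 genes (0.914%) that were higher, 110 (84.6%) had one, with a median of 53.8% and quartiles of 48.5% and 61.9%. Over all 14217 genes, 82.5% had one, with a median of 59.2%. The genes were chosen by their array values, so this is a description, and the position of Control 1 given above holds for the same sets.

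The Western plus DHA difference from the Western diet, tested in the same fit, called 0 of 31042 probe sets, with 1261 at an unadjusted p under 0.05. The lowest adjusted p was 0.0740, for the Myh7 probe set called against Control. Over the 209 named genes, differences from Western lay between -1.56 and 2.29. In the authors' deposited table, 66 probe sets are listed, 17 higher and 49 lower in the DHA group than in the control group. The list includes all 56 probe sets whose deposited p for that comparison is under 0.001. Every listed probe set has a deposited p under 0.001 in at least 1 of the 3 comparisons. For the DHA group against the control group the deposited p of listed probe sets ran up to 0.5585. Of the 64 listed probe sets that are not controls, 15 were higher and 46 lower without overlap in the values used here. The deposited p-values come from the same arrays, so this order is no separate check. The authors' deposited table gives a log2 difference of -1.96 and an adjusted p of 0.0119 for the Myh7 probe set.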

How the data were processed

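RNA of rat left ventricle, in pools of 5 rats, was measured on 6 Affymetrix arrays, 2 for each of 3 diets. The deposited values are log2 expression levels. The submitters' processing notes name RMA and R 2.11.0 as the authors' tools, and RMA as a method sets arrays to a common distribution. The authors also deposited log2 differences and p-values for the 3 comparisons. Of their test and of the genome build, the labels and files used here give nothing. The number of arrays limits the precision, with a median standard error of 0.144 for a difference between diets.

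Groups came from the labels, which name no batch. After 57 control probe sets were left out, 31042 were tested. Symbols came from the platform annotation, checked against RefSeq genes of GRCr8. A single symbol was found for 20826 probe sets, more than 1 for 436 and none for 9780, and only probe sets with a single symbol were named. The probe set with the highest mean over the 6 arrays stood for each of 14217 genes. The fit used limma 3.58.1 (R 4.3.3), with 1 mean per diet over all 6 arrays, 3 residual and 5.28 prior degrees of freedom, Benjamini-Hochberg adjustment and a threshold of 0.05. On simulated data with 200 changed probe sets of 31042, this test recovered 8.4% of log2 changes of 0.5, 96.4% of 1 and 100% of 2. The noise was normal and independent between probe sets there, with its spread set to the fit's own estimate. The many planted changes also eased the Benjamini-Hochberg threshold for each other. On the arrays, 8 probe sets were higher and 55 lower by at least 1, and 1 was called. The shares need not hold for the arrays and do not say which changes could be detected there.

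Named were called probe sets, the 15 genes per direction with the widest gap between the nearest arrays of the 2 diets (level at or above the median in the higher diet, no overlap, difference of at least 0.5, no locus or clone names), up to 4 members with the smallest p of each described list, and a fixed panel of 20 genes, 19 of them with a probe set. The comparison, the 49 gene lists (35 programmes and 14 cell types, 801 of 897 entries measured) and the tests were chosen with earlier results of these data known. Sequences are from the RefSeq promoter table of GRCr8. Alternatives were a replicate block, fits of 4 arrays, other priors, array weights, other scalings, a filter on faint probe sets, other choices among the probe sets of a gene, a looser threshold and leaving out each array.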

Additional observations from a re-analysis of the deposited data

How the results depend on the processing

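The single call, Myh7, held with an intensity trend, a robust prior, array weights, the 3 other scalings and without faint probe sets, with 1 probe set called in each case. It was lost, with 0 called and 0 lower, in the fit of only the 4 arrays compared (difference -1.96, adjusted p = 0.0838) and with 1 probe set per gene, where its probe set was not tested. With an adjusted p under 0.1 there were 2 called, 1 of them higher. Leaving out 1 array gave 0 to 2 calls, 0 to 1 higher and 0 to 1 lower, and a Myh7 difference from -2.09 to -1.84. With the mean over its probe sets Myh7 differed by -1.48 (adjusted p = 0.0326).

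The replicate numbers are in the labels but nothing states that they pair samples. With a replicate block 1 probe set was called, Myh7 at a difference of -1.96 (adjusted p = 0.0126), and 2 pairs cannot show whether numbers pair arrays. Deviations of same-numbered arrays correlated with r = 0.202 for Control and Western plus DHA, -0.206 for Control and Western and -0.228 for Western plus DHA and Western. With the 2 Western numbers exchanged, an alternative chosen after seeing the data, 2 probe sets were called, 1 higher and 1 lower.

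Probe sets without overlap numbered 6836 higher and 4698 lower in the main values and 5627 and 5586 after cyclic loess. They numbered 2622 and 3298 without faint probe sets, and 3168 and 2034 with 1 probe set per gene. Fewer probe sets were tested in the last 2 cases. Without the faint ones the larger count also moved from the higher to the lower side. Of the faint genes, 31.6% were higher and 6.37% lower without overlap. At an unadjusted p under 0.05 there were 1519 probe sets without faint ones, 455 higher and 1064 lower, and 1206 with 1 per gene, 653 higher and 553 lower. Those higher numbered 820 in the fit of 4 arrays and 852 with array weights, against 1296, and those lower 2353 with the crossed numbers, against 1456. The cause was not tested.

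Many alternatives left each difference between diet means as it was, so no direction could change there. These were the replicate block, the intensity trend, the robust prior, array weights and the fit of only the arrays compared. The filter on faint probe sets, 1 probe set per gene and leaving out a Western array did the same. Only 1 probe set was called in the main fit, so the others had no call to lose. The count of kept values is thus no measure of robustness. Of 1793 values under an alternative, of the 110 genes and probe sets described with values, 1770 kept their direction and side of the threshold and 15 changed sign. Another 6 were Myh7 values that lost the call, and 2, of Myh7 and Pik3c2g, gained it. Leaving out 1 array changed the sign for 6 of these genes, with values from -0.036 to 0.509 for Cd36, -0.364 to 0.138 for Col3a1, -0.474 to 0.025 for Nppa, -0.087 to 0.096 for Pdk4, -0.111 to 0.090 for Srebf1 and -0.070 to 0.114 for Ucp3. With the mean over probe sets, Myh6 stood at -0.357, Pdk4 at -0.078, Rpl7 at -0.066 and Ucp3 at -0.113. Srebf1 stood at 0.032 after quantile normalisation and at 0.011 after cyclic loess.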
